A study of Mus musculus with 8 samples.

Results

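Border and perivascular macrophages are represented here by 8 genes that are commonly used to mark them, *Mrc1*, *Cd163*, *Pf4*, *F13a1*, *Cbr2*, *Folr2*, *Ms4a7* and *Stab1*. The genes were taken by name from the deposited tables, which list 46078 genes, and all 8 were among the 14736 genes with enough counts to be tested. They were measured by bulk RNA sequencing of infarct tissue from aged C57BL/6J mice, wild-type males 18 months old, at 7 weeks after a distal hypoxic (DH) stroke that every animal had received. In this model the middle cerebral artery is cauterized far from its origin, and the mouse then breathes air low in oxygen. Vehicle mice (n = 4) were injected subcutaneously with phosphate-buffered saline, and HPβCD mice (n = 4) with 4 g/kg of 2-hydroxypropyl-β-cyclodextrin, a cyclic sugar that can hold cholesterol and other lipids. Both groups were injected 3 times per week for 6 weeks, starting 1 week after stroke. Infarcts were recognized by eye and dissected by hand, so meninges, vessels and neighbouring brain could enter a piece in differing amounts.

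Macrophages at the borders of the brain live in the meninges, in the choroid plexus and in the spaces around penetrating vessels. They are set apart from microglia in the parenchyma by receptors that bind sugars, modified proteins and haemoglobin complexes, and they take up material from cerebrospinal fluid and vessel walls. None of the 8 genes is exclusive to them: *Mrc1* and *Stab1* are also expressed by lymphatic and sinusoidal endothelium and by scavenging macrophages that derive from monocytes, *Pf4* and *F13a1* by platelets and their precursors, and *F13a1* by monocytes. In bulk tissue, fewer cells of a type and less RNA per cell cannot be told apart.

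Library depth ranged from 16.6 M to 32.9 M gene counts, with vehicle animal 2 the deepest, and the 8 genes together took between 0.036% and 0.0935% of the counts. The libraries of vehicle animals 1 and 3 stood apart. The summed level of 8 neuron markers was 950 CPM (counts scaled to library size) in the first and 5996 CPM in the latter, against 7.77 to 81.5 CPM in the other 6 libraries. Results are therefore given also without these 2 libraries where this matters. The summed level of 15 genes shared by macrophages in general, such as *Csf1r* and *C1qb*, ranged from 2504 to 3729 CPM across vehicle infarcts and from 3646 to 6820 CPM across HPβCD infarcts, which overlapped.

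Levels of the 8 genes were compared after CPM were divided by exonic length (CPM per kb). In vehicle infarcts *Ms4a7* had the highest level, 30.2 ± 7.03 CPM per kb (SD, n = 4, as for all group means below), followed by *Mrc1* at 23.8 ± 10.1, *Stab1* at 13.9 ± 2.53 and *F13a1* at 6.88 ± 3.05 CPM per kb. The ranges of neighbours in this order overlapped. *F13a1* and the next gene, *Cbr2*, did not overlap between animals, and *Cbr2*, *Pf4*, *Folr2* and *Cd163* followed with overlapping ranges between 2.68 ± 1.04 and 1.31 ± 0.526 CPM per kb. In HPβCD infarcts the order was *Ms4a7* (50.4 ± 10.2 CPM per kb), *Stab1* (36.3 ± 10.2), *Mrc1* (23.7 ± 3.51), *F13a1* (5.88 ± 1.55), *Cbr2* (5.42 ± 1.90), *Folr2* (2.94 ± 1.58), *Pf4* (0.786 ± 0.459) and *Cd163* (0.671 ± 0.214). Neighbours overlapped there except between *Mrc1* and *F13a1* and between *Folr2* and *Pf4*. *Stab1* stood below *Mrc1* in vehicle infarcts and above it in HPβCD infarcts. The label was thus met unevenly: no gene was at 0 in any library, but *Cd163*, *Folr2*, *Pf4* and *Cbr2* were low throughout, and so was *Lyve1*, a further marker of perivascular macrophages, with means of 2.75 ± 0.977 (vehicle) and 3.72 ± 0.904 CPM (HPβCD).

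**Figure D1:**
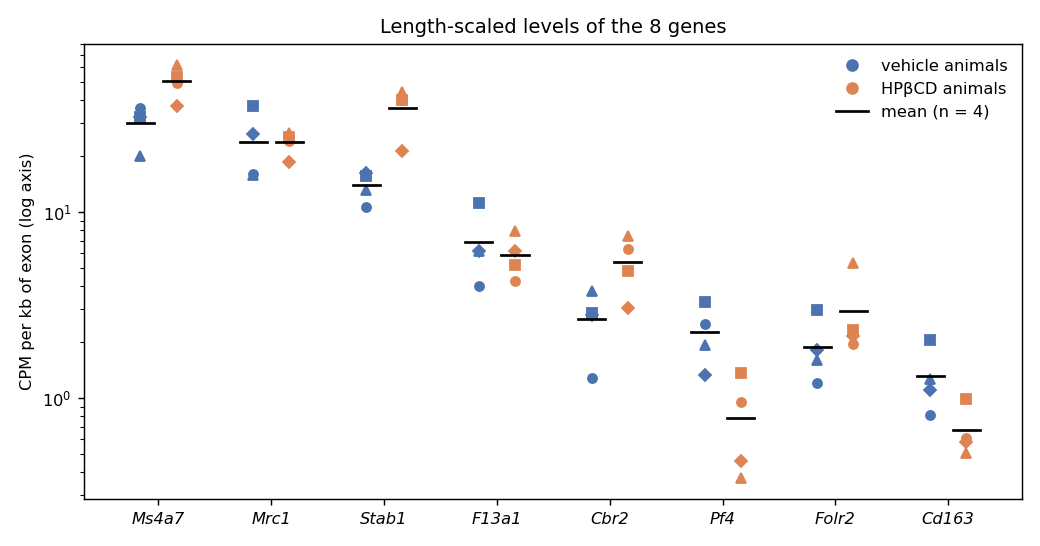
Level of the 8 border macrophage genes in vehicle and HPβCD infarcts, in CPM per kb of exonic sequence on a log axis, with 1 point per animal and a bar at the group mean (n = 4 per group). *Ms4a7*, *Stab1* and *Mrc1* lie highest, and *Cd163* and *Pf4* lie lowest after HPβCD.

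Promoter sequences are shown for the 5 genes on which the results turn, the highest expressed *Ms4a7*, *Mrc1* and *Stab1* and the low *Cd163* and *Pf4*. Each sequence gives the 250 bases before the start of transcription, 5′ to 3′ on the strand of the gene, from RefSeq on build GRCm38.p6, and for *Ms4a7*, which has more than 1 annotated start, it belongs to the outermost. Capitals mark letters of the motifs that were searched on both strands: GAGGAA, the core bound by the macrophage factor PU.1, and TGCTGA, a half-site of MAF factors.
Stab1 (chr14:31168642-31168891, minus strand): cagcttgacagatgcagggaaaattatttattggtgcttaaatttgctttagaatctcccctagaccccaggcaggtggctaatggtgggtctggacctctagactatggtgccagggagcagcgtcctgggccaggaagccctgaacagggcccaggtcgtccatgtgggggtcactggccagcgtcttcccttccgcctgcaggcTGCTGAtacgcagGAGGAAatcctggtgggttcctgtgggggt
Ms4a7 (chr19:11336147-11336396, minus strand): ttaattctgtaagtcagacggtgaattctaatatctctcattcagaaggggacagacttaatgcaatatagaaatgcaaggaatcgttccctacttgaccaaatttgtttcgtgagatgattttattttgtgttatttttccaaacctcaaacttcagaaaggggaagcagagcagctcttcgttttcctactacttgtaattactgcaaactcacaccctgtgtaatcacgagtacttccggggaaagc
Mrc1 (chr2:14229164-14229413, plus strand): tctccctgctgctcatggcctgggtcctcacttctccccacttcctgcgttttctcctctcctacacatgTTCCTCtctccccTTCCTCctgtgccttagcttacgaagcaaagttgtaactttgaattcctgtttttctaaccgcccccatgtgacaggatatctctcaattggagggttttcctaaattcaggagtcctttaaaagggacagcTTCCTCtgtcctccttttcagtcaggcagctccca
Cd163 (chr6:124304401-124304650, plus strand): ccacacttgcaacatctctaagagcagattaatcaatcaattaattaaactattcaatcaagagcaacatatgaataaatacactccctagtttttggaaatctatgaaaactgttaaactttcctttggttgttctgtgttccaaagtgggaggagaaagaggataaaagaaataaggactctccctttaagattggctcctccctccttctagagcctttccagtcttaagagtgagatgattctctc
Pf4 (chr5:90772185-90772434, plus strand): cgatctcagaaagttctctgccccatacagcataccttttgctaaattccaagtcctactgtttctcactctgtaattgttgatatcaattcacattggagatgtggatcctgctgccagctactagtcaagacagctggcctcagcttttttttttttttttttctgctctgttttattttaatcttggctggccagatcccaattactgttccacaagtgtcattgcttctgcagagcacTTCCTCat
The PU.1 core was present in the first window of 5 of the 8 genes (*Mrc1*, *Stab1*, *Pf4*, *F13a1* and *Cbr2*), against 23.3% of 32851 promoter windows of the same length. *Mrc1* carried 3 copies, which lay 180, 167 and 35 bases before the start. In *Stab1* the MAF half-site and the PU.1 core lay 43 and 30 bases before the start and did not overlap each other. The MAF half-site was found in *Stab1* and *Folr2*, against 16.1% of all windows. Neither CACGTG, the E-box bound by MiT/TFE factors (6.02% of all windows), nor the direct repeat of the lipid sensor LXR, 2 copies of AGGTCA separated by any 4 bases (0.0152%), matched in the first window of any of the 8 genes. These matches are descriptions of letters and were not tested against expression.

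The central comparison asked whether the genes of border macrophages differed between infarcts of HPβCD-treated and vehicle mice. They did not move together. *Stab1* rose 2.61-fold, from 143 ± 26.0 to 374 ± 105 CPM, and it was the only one of the 8 genes that passed an adjusted p of 0.05 (edgeR quasi-likelihood test with Benjamini-Hochberg adjustment over all tested genes). By this rule 1.95% of all tested genes were called, 1.17% higher and 0.774% lower. Below, called and passed refer to this edgeR rule unless another method or scale is named. The fitted log2 fold change, HPβCD relative to vehicle, was above 0 for *Stab1*, *Cbr2*, *Ms4a7* and *Folr2* and below 0 for *Pf4*, *Cd163*, *F13a1* and *Mrc1*, as it was for 54.1% of all genes. The median over the 8 genes was 0.31, against -0.05 over all genes tested. An unadjusted p under 0.05 was reached by 5 of the 8 genes, against 27.8% of all genes. Groups did not overlap for 2 of the 8, *Stab1* and *Ms4a7*, against 16.8% of all genes. These counts describe the list and were not tested. With DESeq2 3 of the 8 genes passed, *Stab1* and *Ms4a7* higher and *Pf4* lower, while 17% of 17041 genes did, 5.92% higher and 11.1% lower.

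**Figure D2:**
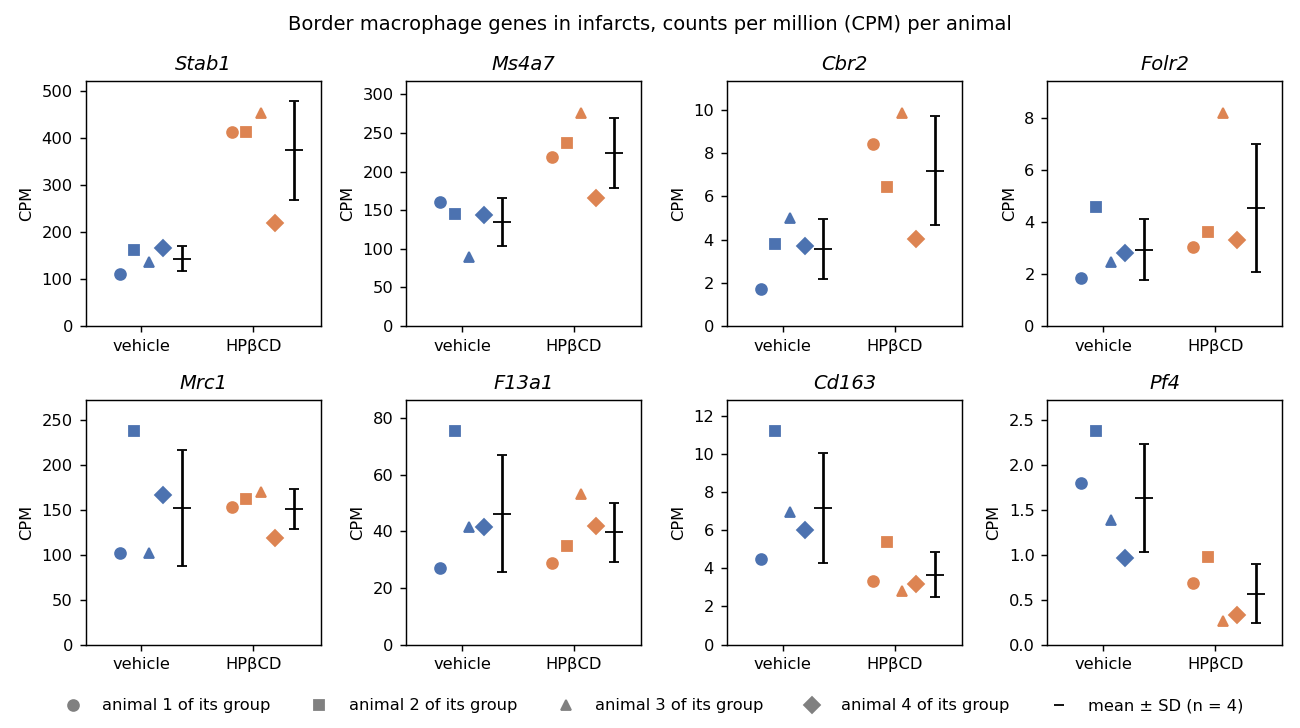
Level of each of the 8 border macrophage genes in each animal, in CPM, with vehicle and HPβCD infarcts side by side, 1 symbol for each animal number, and bars of the mean ± SD (n = 4 per group). The 4 HPβCD points of *Stab1* (218 to 453 CPM) and *Ms4a7* (166 to 276 CPM) lie above all vehicle points, and 3 of the 4 HPβCD points of *Cd163* and *Pf4* lie below all vehicle points.

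Among the scavenger and endocytic receptors, *Stab1* was called, and *Mrc1* and *Cd163* were not. *Stab1* (ENSMUSG00000042286; GRCm38 chromosome 14, 31139013 to 31168641, minus strand) encodes stabilin-1, a large receptor that takes up modified lipoproteins, the matrix protein SPARC and apoptotic cells. It was at 109.8, 161.4, 135.8 and 166.4 CPM in vehicle animals 1 to 4, and at 411.9, 412.0, 452.6 and 218.1 CPM in HPβCD animals 1 to 4. Every HPβCD infarct was above every vehicle infarct, and HPβCD animal 4 lay nearest to the vehicle range. The log2 fold change was 1.38 (SE 0.25; 95% interval 0.82 to 1.95; adjusted p = 0.0483 by edgeR), and 99.6% of tested genes had a lower log2 fold change. The call lay close to the threshold. Without single libraries the log2 fold change of *Stab1* stayed between 1.28 and 1.58, and the adjusted p by edgeR rose to 0.152 without vehicle animal 1, 0.0636 without vehicle animal 4, 0.156 without HPβCD animal 1, 0.175 without HPβCD animal 2 and 0.0899 without HPβCD animal 3. Without vehicle animals 1 and 3, the 2 libraries rich in neuron transcripts, it was 1.20 with an edgeR adjusted p of 0.0729.

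Genes of other cells that can express *Stab1* were set beside it. The summed level of 8 genes of lymphatic endothelium was 151 to 217.5 CPM in vehicle and 231.5 to 291.4 CPM in HPβCD infarcts, without overlap. This sum is weighted toward its most abundant gene, which was not called and whose groups overlapped. Log2 fold changes were above 0 for 6 of the 8 genes and below for 2, with a median of 0.43. When scaled to general macrophage genes, 3 were above and 5 below, with a median of -0.07 and 1 called higher. Of these 8 genes none was at 0 and 2 rose, *Flt4*, the receptor for VEGF-C, from 13.9 ± 1.76 to 35.8 ± 5.66 CPM (fitted log2 fold change 1.36, SE 0.17; adjusted p = 0.0339 by edgeR), and the chemokine *Ccl21a* from 2.71 ± 0.909 to 14.9 ± 7.00 CPM (2.45, SE 0.40; 0.0444), whose reads are shared with near-identical copies. *Mmrn1*, picked after its value was seen, was at 5.89 ± 3.70 and 17.8 ± 2.16 CPM without overlap (1.59, SE 0.47). It did not pass by edgeR (adjusted p = 0.0853) and passed by DESeq2 (0.00843). The defining factor of lymphatic endothelium, *Prox1*, was at 19.3 ± 7.62 and 14.6 ± 3.43 CPM (fitted log2 fold change -0.40). Its highest value, 30.2 CPM, was in vehicle animal 1, a library rich in neuron transcripts. *Stab2*, the endothelial relative of *Stab1*, was at 8.46 ± 1.49 and 9.05 ± 0.479 CPM (0.10). The summed level of 11 foamy macrophage genes ranged from 7806 to 14010 CPM in vehicle and from 17380 to 29180 CPM in HPβCD infarcts. Among the HPβCD animals it was lowest in animal 4, as was *Stab1*. This was not particular to foamy macrophage genes. The sums of general macrophage, class II and endothelial genes were also lowest in that animal, and that of lymphatic genes was not. The most abundant foamy macrophage gene, *Gpnmb*, was at 4140 ± 1120 and 10800 ± 2640 CPM, so the sum of foamy macrophage genes follows it in large part. The part of these cells in the difference of *Stab1* was not tested.

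*Mrc1* (ENSMUSG00000026712; chromosome 2, 14229392 to 14332057, plus strand) encodes the mannose receptor CD206, which binds mannosylated glycoproteins and is the most widely used marker of perivascular macrophages. Its levels were 102.2, 236.7, 101.2 and 166.5 CPM in vehicle animals 1 to 4 and 153.2, 161.3, 170.0 and 118.9 CPM in HPβCD animals 1 to 4. The HPβCD animals all lay within the vehicle range. Means were 152 ± 64.4 and 151 ± 22.4 CPM, and the log2 fold change was -0.01 (SE 0.28; adjusted p = 0.988 by edgeR). The 95% interval of the log2 fold change, -0.65 to 0.63, was wide, and the sign of the estimate turned in several alternatives. The 2 lowest vehicle values belonged to animals 1 and 3, and without these libraries the log2 fold change was -0.40.

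*Cd163* (ENSMUSG00000008845; chromosome 6, 124304656 to 124330527, plus strand) encodes the receptor through which macrophages clear complexes of haemoglobin and haptoglobin. It was far lower than *Mrc1*, at 4.459, 11.17, 6.946 and 6.01 CPM in vehicle animals 1 to 4 and at 3.325, 5.38, 2.784 and 3.157 CPM in HPβCD animals 1 to 4. These levels rested on 52 to 390 counts per library. HPβCD animals 1, 3 and 4 were below all vehicle animals, and HPβCD animal 2 was above vehicle animal 1 only. Group means were 7.15 ± 2.87 (vehicle) and 3.66 ± 1.17 CPM (HPβCD), a log2 fold change of -0.97 (SE 0.33; 95% interval -1.72 to -0.22) that did not pass the adjustment (adjusted p = 0.108 by edgeR; DESeq2 adjusted p = 0.0573). Without vehicle animals 1 and 3 the log2 fold change was -1.22 and did not pass either (adjusted p = 0.0971 by edgeR).

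*Ms4a7* (ENSMUSG00000024672; chromosome 19, 11321039 to 11336146, minus strand) encodes a 4-span membrane protein of the MS4A family that marks border macrophages and macrophages derived from monocytes rather than resting microglia. It measured 161.1, 144.7, 89.27 and 143.7 CPM in vehicle animals 1 to 4, and 219.4, 236.4, 275.9 and 166.0 CPM in HPβCD animals 1 to 4. All 4 HPβCD values exceeded all 4 vehicle values, though HPβCD animal 4 lay close above vehicle animal 1. With means of 135 ± 31.3 and 224 ± 45.6 CPM, the log2 fold change was 0.74 (SE 0.22; 95% interval 0.23 to 1.24). The difference did not pass by edgeR (adjusted p = 0.0867) and passed by DESeq2 (adjusted p = 0.0254) and by limma-voom with sample quality weights (adjusted p = 0.0136), with which 22.1% of all genes passed.

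*Folr2* (ENSMUSG00000032725; chromosome 7, 101839988 to 101857194, minus strand) encodes folate receptor beta, which carries folate into macrophages of resident type. Its level was 1.863, 4.582, 2.476 and 2.791 CPM in vehicle animals 1 to 4 and 3.039, 3.607, 8.192 and 3.324 CPM in HPβCD animals 1 to 4. The groups overlapped, and HPβCD animal 3 stood above every other library. The log2 fold change of 0.62 (SE 0.40; adjusted p = 0.353 by edgeR) was 0.18 without HPβCD animal 3 and 0.31 without vehicle animals 1 and 3. The exons of *Folr2* overlap those of the predicted gene *Gm10602* on the opposite strand over 63.1% of their length. *Gm10602* had 7 to 21 counts per library, against 33 to 160 counts for *Folr2*, and because the strand setting of the counting is not given, reads of the pair may have been mixed or left out.

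*Cbr2* (ENSMUSG00000025150; chromosome 11, 120729489 to 120732114, minus strand) encodes a carbonyl reductase that reduces reactive carbonyl compounds. Vehicle animals 1 to 4 had 1.693, 3.809, 5.013 and 3.703 CPM, and HPβCD animals 1 to 4 had 8.428, 6.42, 9.852 and 4.044 CPM. HPβCD animals 1 to 3 were above every vehicle animal, and HPβCD animal 4 lay inside the vehicle range. The log2 fold change was 1.01 (SE 0.38; 95% interval 0.16 to 1.87) and did not pass by edgeR (adjusted p = 0.125) or DESeq2 (0.0576), but passed by limma-voom (0.0299).

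The 2 secreted products were *Pf4* and *F13a1*. *Pf4* (ENSMUSG00000029373; chromosome 5, 90772435 to 90773383, plus strand) encodes platelet factor 4 (CXCL4), a chemokine that binds heparin. It had 32, 83, 23 and 18 counts in vehicle animals 1 to 4 and 12, 16, 5 and 6 counts in HPβCD animals 1 to 4, corresponding to 1.806, 2.377, 1.389 and 0.966 CPM and to 0.688, 0.978, 0.268 and 0.332 CPM. HPβCD animals 1, 3 and 4 were below every vehicle animal, whereas HPβCD animal 2 was level with vehicle animal 4. Counting error alone was wide at this depth, with an exact 95% Poisson interval of 0.0869 to 0.625 CPM for HPβCD animal 3 and of 0.572 to 1.53 CPM for vehicle animal 4. The log2 fold change of *Pf4* was -1.54 (SE 0.47; 95% interval -2.60 to -0.48), which was not a call by edgeR (adjusted p = 0.0876) or limma-voom (-1.09; adjusted p = 0.109) and was one by DESeq2 (adjusted p = 0.0328).

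Platelet genes were examined beside *Pf4* because platelets hold its transcript. The summed level of 10 platelet and megakaryocyte genes was 18.2 to 45.7 CPM in vehicle and 26.9 to 31.7 CPM in HPβCD infarcts, and none of the 10 was at 0 in all libraries. Of the 5 that could be tested 4 had log2 fold changes below 0 and none passed. When scaled to general macrophage genes all 5 were below 0, and the platelet receptor *Gp1ba*, picked after its value was seen, was called lower on that scale (-1.77; adjusted p = 0.038 by edgeR), as *Pf4* was. *Itgb3*, an integrin subunit, was at 17.1 ± 5.70 and 21.1 ± 3.92 CPM (fitted log2 fold change 0.31), and *Ppbp*, the platelet chemokine next to *Pf4* on chromosome 5, at 4.22 ± 4.76 and 2.61 ± 1.63 CPM (-0.72, SE 0.80). The part of platelets in the *Pf4* values was not tested.

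*F13a1* (ENSMUSG00000039109; chromosome 13, 36867178 to 37050244, minus strand) encodes the A subunit of coagulation factor XIII, a transglutaminase that crosslinks fibrin. It was at 26.92, 75.37, 41.55 and 41.48 CPM in vehicle animals 1 to 4 and at 28.84, 34.85, 53.12 and 41.82 CPM in HPβCD animals 1 to 4. The HPβCD values all fell inside the vehicle range, whose upper end was set by vehicle animal 2. With means of 46.3 ± 20.6 and 39.7 ± 10.4 CPM the log2 fold change was -0.23 (SE 0.32; 95% interval -0.94 to 0.49; adjusted p = 0.69 by edgeR), and it turned to 0.12 without vehicle animal 2. Vehicle animal 2 had the highest value of *Mrc1*, *Cd163*, *Folr2*, *Pf4* and *F13a1* in its group, but not of *Stab1*, *Ms4a7* or *Cbr2*.

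**Figure D3:**
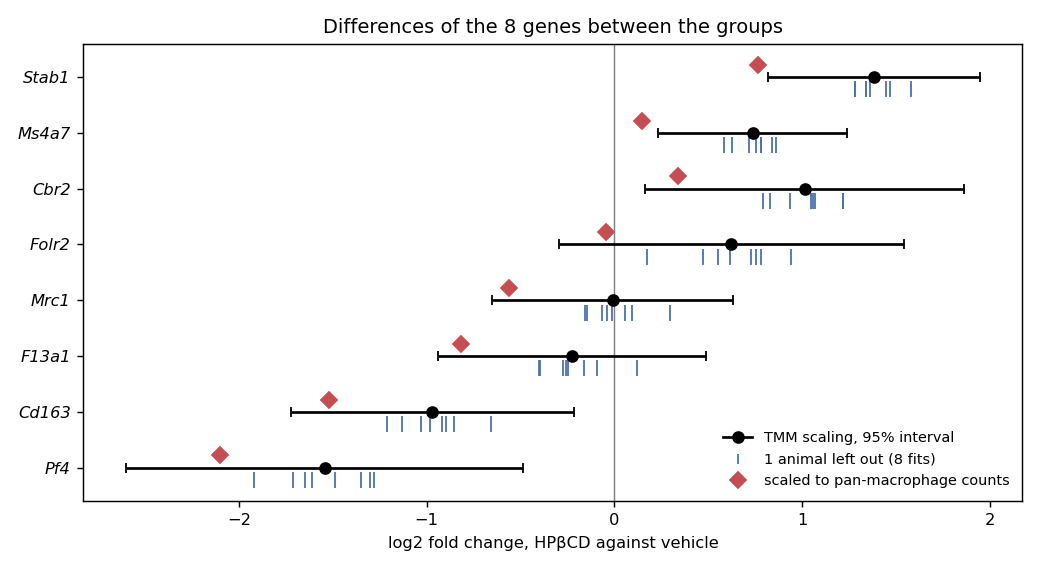
Log2 fold change of the 8 border macrophage genes, HPβCD relative to vehicle, as black points with 95% intervals from the edgeR fit (n = 4 per group), blue ticks for fits without 1 animal each, and red diamonds for the fit scaled to the summed counts of 15 general macrophage genes. *Stab1* is highest at 1.38 and *Pf4* lowest at -1.54, and each diamond lies to the left of its black point.

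The next question was how the 8 genes stood relative to other macrophage transcripts, since the summed level of 15 general macrophage genes was on average higher in HPβCD infarcts. None of the 15 passed singly by edgeR, 12 had log2 fold changes above 0, and their median was 0.48. DESeq2 called 6 of the 15 higher and 0 lower, against 5.92% and 11.1% of all genes. *C1qb* and *C1qc*, 2 chains of complement C1q, were the most abundant of them, with log2 fold changes of 0.58 (SE 0.26) and 0.78 (SE 0.27). The 15 did not move alike: *Csf1r* was at 0.13 (SE 0.20), and 3 of the 15 were below 0. Their sum is weighted toward its abundant genes, and so is every value on the scale set by it. When library size was set by the counts of these genes, the median log2 fold change of all genes moved to -0.61, and 960 genes were called, 16 higher and 944 lower. On this scale *Stab1* was at 0.77 (adjusted p = 0.0797 by edgeR), *Cbr2* at 0.34, *Ms4a7* at 0.15 and *Folr2* at -0.05. *Mrc1* was at -0.56 (adjusted p = 0.156) and *F13a1* at -0.82 (0.106), while *Cd163* at -1.52 (0.0455) and *Pf4* at -2.10 (0.0403) were called lower by edgeR. Relative to the median of all genes on the same scale, *Mrc1* and *F13a1* were thus near the middle and *Cd163* and *Pf4* remained below it.

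Expressed as a share of the summed CPM of the general macrophage genes, *Stab1* corresponded to 4.55% ± 0.797 in vehicle and 7.74% ± 1.71 in HPβCD infarcts. *Ms4a7* was at 4.22% ± 0.693 and 4.68% ± 0.491, and *Mrc1* at 4.70% ± 1.64 and 3.19% ± 0.481. *Cd163* was at 0.228% ± 0.0914 and 0.0797% ± 0.0302, with no overlap between 0.143% in the lowest vehicle and 0.114% in the highest HPβCD animal, and *Pf4* at 0.0525% ± 0.0189 and 0.0125% ± 0.00742, with no overlap either. These shares are given as descriptions without a test.

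The ratio of *Stab1* to *Mrc1* CPM within an animal separated the groups, as chosen after the values were seen. It was 1.08, 0.682, 1.34 and 0.999 in vehicle animals 1 to 4 and 2.69, 2.55, 2.66 and 1.83 in HPβCD animals 1 to 4. *Cd163* was equal to 4.36%, 4.72%, 6.86% and 3.61% of the *Mrc1* CPM in vehicle animals and to 2.17%, 3.34%, 1.64% and 2.65% in HPβCD animals, again without overlap. *Ms4a7* was equal to between 61.1% and 158% of the *Mrc1* CPM in vehicle and between 140% and 162% in HPβCD animals, which overlapped because of vehicle animal 1.

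Across the 8 libraries the 8 genes did not rise and fall as 1 group. Over their 28 pairs, Pearson correlations of log2 CPM ranged from -0.67 to 0.88 with a median of 0.35, and 18 were above 0. The highest were between *Stab1* and *Cbr2* (0.88), *Cd163* and *Pf4* (0.85) and *Stab1* and *Ms4a7* (0.84), and all libraries in these correlations share the difference between the groups. When each library was expressed as its deviation from its group mean, the correlations ranged from -0.25 to 0.88 and 23 of 28 were above 0.

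The gene with the pattern most like each member over the 8 libraries was sought among 11254 tested genes whose mean reached 5 CPM. *Mrc1* was closest to *Msr1*, the class A scavenger receptor of macrophages (r = 0.931 and Spearman's rho = 0.833; r = 0.882 without the 2 libraries farthest from the median). *Msr1* was at 129 ± 50.5 and 136 ± 24.3 CPM, with a log2 fold change of 0.08 (SE 0.29). *Stab1* was closest to *Tgfbrap1* (r = 0.996), *Ms4a7* to the interferon-induced *Ifi35* (r = 0.984) and *Cbr2* to *Vps37c*, a component of the ESCRT sorting machinery (r = 0.981). The nearest gene was *Aldh1b1* for *Folr2* (r = 0.957), *Mrgbp* for *Pf4* (r = 0.954), *Urb1* for *Cd163* (r = 0.951) and *Pacsin2* for *F13a1* (r = 0.934). With so many candidates and 8 libraries, such values describe the pattern only.

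A wider list of 29 other genes of border macrophages held 24 that could be tested. Of these, 17 had log2 fold changes above 0 and 7 below, with a median of 0.41. When scaled to general macrophage genes 9 were above and 15 below, with a median of -0.15 and 1 called lower. With TMM scaling *Igfbp4* alone passed by edgeR. DESeq2 called 6 of the 24 higher and 1 lower, against 5.92% and 11.1% of all genes. *Igfbp4*, a binding protein of insulin-like growth factors that fibroblasts also make, rose from 676 ± 156 to 1430 ± 103 CPM (fitted log2 fold change 1.09, SE 0.20; adjusted p = 0.0483 by edgeR). Groups did not overlap for 8 of the 24 genes, 6 higher and 2 lower, against 8.77% and 8.01% of all genes. The following were picked after their values were seen. The sialic acid receptor *Siglec1* was at 84.0 ± 19.2 and 152 ± 28.7 CPM (0.85, SE 0.21; adjusted p = 0.0636 by edgeR) and the bridging ligand *Gas6* at 96.0 ± 15.1 and 192 ± 51.8 CPM (1.00, SE 0.22; 0.0578). The C-type lectin *Cd209f* was at 1.70 ± 0.362 and 0.858 ± 0.217 CPM (-0.98, SE 0.30; 0.0867). *Siglec1* and *Gas6* had estimates on the side of *Stab1*, and *Cd209f* on the side of *Cd163* and *Pf4*, and none of the 3 passed by edgeR. By DESeq2 *Siglec1* (adjusted p = 0.00584) and *Gas6* (0.00173) passed and *Cd209f* (0.0686) did not.

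**Figure D4:**
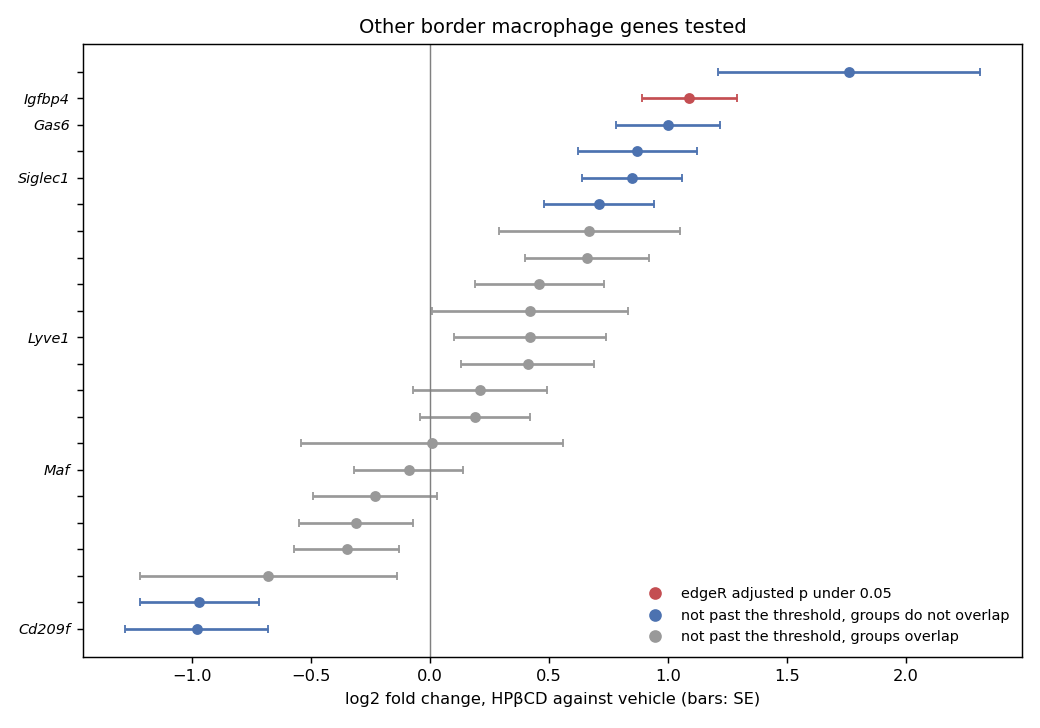
Log2 fold change of 22 of the 24 other border macrophage genes that were tested, with names for those described in the text, HPβCD relative to vehicle (n = 4 per group), with bars of the SE. *Igfbp4* (red) is the only gene with an edgeR adjusted p under 0.05, blue points mark genes whose groups do not overlap, and 15 of the 22 points lie above 0.

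Relatives of the receptors were followed next. In the mannose receptor family *Mrc2*, the collagen receptor Endo180 of fibroblasts and macrophages, rose from 228 ± 46.5 to 513 ± 143 CPM (fitted log2 fold change 1.17, SE 0.23; adjusted p = 0.0483 by edgeR), whereas the log2 fold changes of *Ly75* (0.30, SE 0.22) and *Pla2r1* (0.40, SE 0.30) did not pass. *Mrc2* was thus called where *Mrc1* was not, and the difference between them was not tested. Of 10 scavenger receptor cysteine-rich and stabilin genes, 8 were tested and 1 was called. It was *Cd163l1*, the closest relative of *Cd163*, expressed on some T lymphocytes, which fell from 1.67 ± 0.800 to 0.257 ± 0.168 CPM (-2.67, SE 0.55; adjusted p = 0.0499 by edgeR). *Cd5l*, a secreted protein of lipid-laden macrophages and the most abundant of the list, was at 1070 ± 336 and 2740 ± 861 CPM (1.36, SE 0.31; adjusted p = 0.0583 by edgeR).

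The haem and iron that macrophages take up through CD163 are handled by a further set of genes. Of 10 listed genes 9 were tested, all 9 had log2 fold changes above 0 with a median of 0.71 (6 of 9 and 0.17, with none called, when scaled to general macrophage genes), and 3 passed. *Ftl1*, the ferritin light chain, rose from 1130 ± 153 to 2540 ± 626 CPM (fitted log2 fold change 1.16, SE 0.22; adjusted p = 0.0483 by edgeR). *Lrp1*, the receptor for complexes of haem and haemopexin and for many lipoproteins, rose from 786 ± 173 to 1720 ± 367 CPM (1.13, SE 0.23; 0.0499), and *Blvrb*, a biliverdin reductase, from 19.7 ± 1.26 to 33.1 ± 0.518 CPM (0.75, SE 0.12; 0.0427). *Fth1*, the ferritin heavy chain, was at 2970 ± 739 and 5530 ± 1660 CPM (0.90, SE 0.27; adjusted p = 0.0881 by edgeR). *Hmox1*, the haem oxygenase, which is named here for its role, was at 77.7 ± 25.9 and 110 ± 10.9 CPM (0.50, SE 0.24; 0.21).

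In the families of the remaining genes no member was called by edgeR. DESeq2 called 2 MS4A genes and 1 chemokine gene near *Pf4* lower. It called 1 gene of the carbonyl reductase list and 1 of the transglutaminase and fibrin list higher, and 0 folate genes. Of all genes it called 5.92% higher and 11.1% lower. Of 19 MS4A genes other than *Ms4a7*, 11 were tested, 4 with log2 fold changes above 0 and 7 below (1 and 10, with 3 called lower, when scaled to general macrophage genes). *Tmem176b*, the most abundant, was at 324 ± 85.7 and 395 ± 45.6 CPM (0.29, SE 0.22), and the macrophage gene *Ms4a6d* at 143 ± 53.1 and 203 ± 11.3 CPM (0.51, SE 0.27). *Ms4a1*, which encodes CD20 on B lymphocytes and was picked after its value was seen, was at 191 ± 96.7 and 49.6 ± 21.4 CPM (-1.95, SE 0.53; adjusted p = 0.0797 by edgeR), the opposite side from *Ms4a7*. Of 12 genes of folate handling besides *Folr2*, 11 were tested with log2 fold changes between -0.86 and 0.54. *Ggh*, a lysosomal hydrolase of folates, was at 65.8 ± 28.6 and 72.7 ± 20.9 CPM (0.14, SE 0.38). All 5 carbonyl reductases and related enzymes were tested, and *Dcxr*, the most abundant, was at 13.8 ± 2.32 and 23.4 ± 5.30 CPM (0.76, SE 0.21; adjusted p = 0.0735 by edgeR). Beside *F13a1*, only 3 of 12 transglutaminase and fibrin genes were tested, among them fibronectin (*Fn1*) at 615 ± 149 and 1200 ± 264 CPM (0.96, SE 0.24; adjusted p = 0.0641 by edgeR) and *Tgm2* at 126 ± 46.8 and 151 ± 7.61 CPM (0.26, SE 0.26). Near *Pf4*, 5 of 7 chemokine genes including its receptor *Cxcr3* were tested, and *Cxcl5* was at 18.5 ± 12.1 and 5.98 ± 1.41 CPM (-1.63, SE 0.47; adjusted p = 0.0814 by edgeR) and *Cxcr3* at 9.06 ± 2.08 and 10.2 ± 4.34 CPM (0.17, SE 0.31).

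Factors that maintain border macrophages or induce their genes also gave no call by edgeR. DESeq2 called 1 growth factor gene higher, and 2 transcription factors higher and 1 lower. Of the alternative activation genes it called 1 higher and 1 lower, and of the interleukin 10 and glucocorticoid genes 1 higher. *Stat6* counted in 2 of these lists. Of all genes DESeq2 called 5.92% higher and 11.1% lower. Of 12 transcription factors of macrophages, 10 had log2 fold changes above 0 and 2 below, which turned to 2 above and 10 below, with 1 called lower, on the macrophage scale. *Stat6*, which acts below the interleukin 4 receptor, was at 113 ± 21.9 and 191 ± 31.6 CPM (0.76, SE 0.19; adjusted p = 0.0643 by edgeR). *Maf*, which sustains the resident macrophage state, was at 138 ± 39.2 and 130 ± 28 CPM (-0.09, SE 0.23). The receptor of the growth factor CSF1, *Csf1r*, was at 456 ± 46.3 and 498 ± 129 CPM (0.13, SE 0.20), and *Tgfb1* at 106 ± 18.6 and 157 ± 18.5 CPM (0.56, SE 0.16; 0.0848). Interleukin 4 and interleukin 10 both raise *Mrc1* or *Cd163* in cultured macrophages. Of 12 genes of alternative activation 9 were tested, 5 with log2 fold changes above 0 and 4 below (2 and 7, with 1 called lower, on the macrophage scale). *Il13ra1* was at 182 ± 71.2 and 232 ± 36.9 CPM (0.35, SE 0.30). *Irf4*, picked after its value was seen, was at 57.9 ± 15.5 and 19.9 ± 8.04 CPM without overlap (-1.54, SE 0.32; adjusted p = 0.0516 by edgeR). It was the gene called lower on the macrophage scale (adjusted p = 0.0135 by edgeR). Of 11 genes of interleukin 10 and glucocorticoid signaling 9 were tested, with the glucocorticoid receptor *Nr3c1* at 284 ± 69.2 and 287 ± 61.1 CPM (0.01, SE 0.23) and *Stat3* at 173 ± 34.6 and 228 ± 31.2 CPM (0.40, SE 0.18).

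Class II molecules divide border macrophages into populations of high and low presentation. None of 7 class II genes passed, 4 had log2 fold changes above 0 and 3 below (none above on the macrophage scale), and their summed level ranged from 2318 to 6361 CPM in vehicle and from 3603 to 6776 CPM in HPβCD infarcts. *H2-Aa* was at 2180 ± 954 and 2390 ± 565 CPM (0.13, SE 0.39) and *Cd74* at 1840 ± 706 and 1670 ± 362 CPM (-0.14, SE 0.31). The class II level did not separate the groups in the way *Stab1* did.

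Markers of other myeloid cells were set beside the 8 genes, since infarcts also hold microglia, monocytes and lipid-laden macrophages. Of 12 microglia genes 11 were tested, 3 with log2 fold changes above 0 and 8 below, with a median of -0.83 (1 and 10, and -1.38, with 5 called lower, on the macrophage scale). *Siglech*, a lectin of microglia and plasmacytoid cells, fell from 23.4 ± 9.55 to 4.41 ± 2.59 CPM (-2.40, SE 0.45; adjusted p = 0.0483 by edgeR). Of 11 foamy macrophage genes *Gpnmb* alone passed by edgeR, rising from 4140 ± 1120 to 10800 ± 2640 CPM (1.38, SE 0.28; adjusted p = 0.0483 by edgeR). DESeq2 called 5 of the 11 higher and 0 lower, against 5.92% and 11.1% of all genes. Log2 fold changes of the 11 were above 0 for 9 and below for 2, with a median of 0.65. On the macrophage scale 8 were above and 3 below, with a median of 0.098 and none called. Of 9 monocyte genes *Ace* alone passed, rising from 76.7 ± 17.8 to 191 ± 39.5 CPM (1.31, SE 0.21; 0.0436), although endothelium expresses it too, and *Ccr2* was at 172 ± 78.2 and 145 ± 36.7 CPM (-0.25, SE 0.36). The 8 dendritic cell genes held no call, and *Itgax* was at 194 ± 69.0 and 278 ± 45.7 CPM (0.51, SE 0.26).

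Genes of cells in the meninges and vessel walls, where border macrophages live, were examined as well. The summed level of 11 meningeal fibroblast genes was 2715 to 5780 CPM in vehicle and 8062 to 8902 CPM in HPβCD infarcts, without overlap. The collagen chain *Col1a2* rose from 920 ± 245 to 2530 ± 435 CPM (fitted log2 fold change 1.46, SE 0.24; adjusted p = 0.0462 by edgeR) and *Col1a1* from 313 ± 102 to 958 ± 198 CPM (1.61, SE 0.29; 0.0483), and the other 9 did not pass by edgeR. DESeq2 called 5 of the 11 higher and 1 lower, against 5.92% and 11.1% of all genes. *Slc6a13*, a transporter of meningeal fibroblasts picked after its value was seen, lay on the opposite side without overlap, at 15.8 ± 3.13 and 8.81 ± 0.647 CPM (-0.84, SE 0.17; adjusted p = 0.0502 by edgeR). Of the 11 genes 9 had log2 fold changes above 0 and 2 below, which turned to 6 and 5 on the macrophage scale, with *Col1a1* called higher and *Slc6a13* lower. The mural cell gene *Pdgfrb* rose from 114 ± 23.1 to 259 ± 69.2 CPM (1.18, SE 0.23; adjusted p = 0.0483 by edgeR), 1 of 7 in its list, all above 0 (3 above and 4 below, with none called, on the macrophage scale), and the summed level was 383.9 to 587.1 CPM in vehicle and 597.8 to 916.6 CPM in HPβCD infarcts. None of 10 endothelial genes passed by edgeR, with *Cdh5* at 128 ± 26.8 and 202 ± 32.3 CPM (0.66, SE 0.19; adjusted p = 0.0806 by edgeR). DESeq2 called 2 of the 10 higher and 1 lower, against 5.92% and 11.1% of all genes. HPβCD animal 4, the lowest of its group for *Stab1*, *Ms4a7*, *Cbr2* and *Mrc1*, was also the lowest of its group for the summed fibroblast genes, but only by a little. Its sum was 8062 CPM, against 8594 to 8902 CPM in HPβCD animals 1 to 3, and some genes of the list were highest in it. Among brain parenchyma genes, all 6 tested neuron genes and all 6 astrocyte genes had log2 fold changes below 0. So had 5 of 6 oligodendrocyte genes. The medians were -5.88, -1.57 and -1.90, and none of the genes passed by edgeR. DESeq2 called 5 neuron, 4 astrocyte and 1 oligodendrocyte genes lower, against 11.1% of all genes. On the macrophage scale 3 astrocyte genes were called lower and none of the neuron or oligodendrocyte genes. Vehicle animals 1 and 3 held most of the neuron transcripts. Of 4 B lymphocyte genes 2 fell, *Cd79a* from 33.6 ± 12.6 to 9.05 ± 3.51 CPM (-1.89, SE 0.38; adjusted p = 0.0485 by edgeR) and *Cd79b* from 35.6 ± 10 to 9.68 ± 4.69 CPM (-1.88, SE 0.36; 0.0483), and none of 6 T lymphocyte genes passed. The part of these cells in the values of the 8 genes was not tested.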

How the data were processed

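Gene counts came from infarcts of 4 vehicle and 4 HPβCD mice, grouped and numbered by the sample labels. The authors made stranded libraries from polyadenylated RNA, sequenced paired ends, converted reads with bcl2fastq 2.19, trimmed them with Trimmomatic 0.32, aligned them with STAR 2.5.2b to GRCm38 and counted them per gene with htseq-count, as the paper's methods and the submitters' processing notes state. The htseq-count version, strand option and annotation release are not given in the sources used here. The deposited values are raw counts, without normalization. The 5 lines for reads assigned to no gene, 26.6% to 36.6% of a library, were left out, which undercounts genes that have near-identical copies. Symbols matched 45229 of 46078 identifiers in a table of gene names, and coordinates are those of GENCODE M21 on GRCm38.

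Differences were tested with edgeR 4.0.16 in R 4.3.3 (robust quasi-likelihood F test, TMM factors, filterByExpr, no covariate) on all 14736 genes kept, with Benjamini-Hochberg adjustment and a threshold of 0.05. SE is the log2 fold change divided by the root of F. CPM, from the cpm function of edgeR, used the library total times its TMM factor. A prior count of 2 entered log2 CPM. Intervals on counts cover counting error only, since reads carry no molecular identifiers. The labels give no batch. No 2 libraries agreed within sampling noise (lowest chi-square per degree of freedom 18.9). Each animal is 1 sample. The procedure was tested on simulated counts drawn independently for each gene. These held no libraries rich in neuron transcripts, so that test does not cover the effect of such libraries on the calls.

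The 8 genes and all lists were chosen with earlier results of these data known. Named genes are the 8, the 2 most abundant tested genes and every called gene of each other list, and the nearest gene of each of the 8, apart from some genes that are not reported here. Others are said to be picked after their values were seen, apart from *Lyve1*, *Prox1*, *Stab2*, *Pla2r1*, *Maf*, *Hmox1* and *Gm10602*, named for their role once values were known. Alternatives were DESeq2 1.42.0, limma-voom with sample quality weights (limma 3.58.1), other scalings and filters, the animal number as a block and single libraries left out. Leaving out vehicle animals 1 and 3 together was added after seeing the data.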

Additional observations from a re-analysis of the deposited data

Results flagged for a closer look

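*Stab1* in HPβCD animal 4 lay apart from the other 3 animals of its group. Its log2 CPM was 7.77, against 8.69 to 8.82 in HPβCD animals 1 to 3, a gap larger than the 95% limit of Dixon's test for 4 values allows. Of 18 groups of values searched in this way 1 stood apart, and chance gives about 0.9. The animal remained above all vehicle animals for *Stab1*, and without it the log2 fold change of *Stab1* was 1.58 with an edgeR adjusted p of 0.0294.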

How the results depend on the processing

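The number of genes called depended on the method and the scaling, and so did the number among the 8. Against 287 genes and 1 of the 8 by edgeR, DESeq2 called 2899 genes and 3 of the 8, limma-voom with sample quality weights 3253 and 3, edgeR with library totals alone 11 and 0, and edgeR scaled to general macrophage genes 960 (16 higher and 944 lower, against 173 and 114) and 2. Library totals alone moved the median log2 fold change of all genes to -0.12, and none of the genes named as called from the other lists passed with them (adjusted p 0.0515 to 0.0583 by edgeR). Without vehicle animals 1 and 3 there were 202 genes called and 0 of the 8. Leaving out single libraries gave 0 to 629 genes and 0 to 1 of the 8. By edgeR 0 genes were left in the fits that dropped vehicle 1 or 4 or HPβCD 2 or 3, where 2922 to 4216 had an unadjusted p under 0.05, and 4, 353, 538 and 629 in those that dropped HPβCD 1, HPβCD 4, vehicle 2 and vehicle 3. *Stab1* was above 0 in all 17 alternatives and lost its call in 9 of them, including library totals alone (1.30; adjusted p = 0.0552 by edgeR). *Mrc1* turned above 0 by DESeq2 (0.00477) and without a filter (0.0152), and when vehicle 2 (0.299), vehicle 4 (0.055) or HPβCD 4 (0.0959) was dropped, within a range of -0.158 to 0.299 over these fits. *F13a1* turned when vehicle 2 was dropped (0.122, in a range of -0.403 to 0.122) and *Folr2* when scaled to macrophage genes (-0.0461). The cause was not tested.

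The labels give both groups the numbers 1 to 4. Deviations from the group means correlated between same-numbered animals by -0.26, 0.24, 0.33 and 0.10, and 3 of the 8 libraries correlated best with their own number. With so few animals these values do not settle whether the numbers pair the animals. With the number as a block 9 genes and 0 of the 8 passed, *Stab1* was at 1.35 (edgeR adjusted p = 0.0876) and *Mrc1* turned to 0.0726. At 5 to 83 counts per library, depth limits *Pf4* in particular.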
